A study of Mus musculus with 9 samples.

Results

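The 9 podocyte and slit diaphragm genes described here were Nphs1, Kirrel, Cd2ap, Magi2, Podxl, Ptpro, Synpo, Actn4 and Wt1. They were picked by gene symbol from 21950 protein-coding genes measured in the renal cortex, and all 9 were among the 14537 genes that passed the filter on low values. RNA-seq libraries came from 9 male mice of the C57BL/KsJ background, 1 mouse per library, all killed at 15 weeks of age. The control group held 3 db/m littermates, which carry 1 mutated copy of the leptin receptor gene (db) and are not diabetic. The dbdb group held 3 db/db mice, homozygous for db, and the dbR group held 3 db/db mice given rosiglitazone, a PPARγ agonist, at 20 mg/kg/day. Gavage with rosiglitazone, or with vehicle in the control and dbdb mice, began at 7 weeks of age and lasted 8 weeks. The leptin receptor was mutated in every cell of the db/db mice, so the groups differ in obesity and diabetes of the whole animal and not in a podocyte lesion alone.

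Podocytes are the visceral epithelial cells of the glomerulus, whose interlocking foot processes wrap the capillaries. Neighbouring foot processes are bridged by the slit diaphragm, a cell junction built around nephrin (Nphs1) and NEPH1 (Kirrel), which adaptors such as CD2AP (Cd2ap) and MAGI2 (Magi2) tie to the actin cytoskeleton. Damage to foot processes or loss of podocytes lets albumin pass into the urine and is a hallmark of diabetic kidney disease. Podocytes are a small share of the cells of the cortex, which is mostly tubule. In whole cortex, fewer podocytes and less RNA per podocyte cannot be told apart. Nphs1, Synpo, Wt1 and Ptpro are largely restricted to podocytes within the kidney, whereas Cd2ap, Actn4, Podxl, Magi2 and Kirrel are also made by other renal cells, such as tubule or endothelial cells.

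Levels are FPKM, fragments per kilobase of transcript scaled to the mapped fragments of the library, summed over the transcripts of a gene. The FPKM of the mRNA transcripts summed to between 594838 and 730057 per library, and mitochondrial transcripts took 26.9% to 32.8% of that sum. Read totals were not used here, and depth was estimated from the spacing of the lowest values, which put the 9 libraries at 0.913 to 1.14 times the depth of control replicate 1. At that depth the estimated number of fragments per library was lowest for Wt1, at 209 to 360, and highest for Actn4, at 8760 to 12900. Libraries of the same group correlated with r between 0.982 and 0.993 across 11615 genes.

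Actn4 had the highest level of the 9 genes, with a mean of 97.7 FPKM over the 9 libraries. Podxl (43.3) and Cd2ap (41.2) followed, then Synpo (10.4), Nphs1 (5.24), Magi2 (4.67), Ptpro (4.24), Wt1 (3.96) and Kirrel (1.82). In the control group the levels of Nphs1, Magi2 and Ptpro overlapped, and so did those of Nphs1 and Wt1, so their order could not be set there. In the dbdb group every Nphs1 value lay above every Magi2 value. Cd2ap lay above Podxl in all 3 control libraries and below it in all 6 db/db libraries.

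The promoter windows of the genes were read from RefSeq (GRCm38.p6), as 250 bases before each gene's start in RefSeq. These starts can differ from those of the GENCODE M21 annotation. The Nphs1 window (chr7:30459808-30460057) lies after the GENCODE start of the gene (30458315), so it is not upstream sequence by that annotation. Windows were found for 6 of the 9 genes (Nphs1, Kirrel, Cd2ap, Magi2, Ptpro and Actn4), with separate windows for the 2 starts of Magi2. Windows are printed for Ptpro, Actn4 and Magi2, 3 of the genes that rose in dbdb mice, and no others, because in the GENCODE M21 annotation 250, 210 and 241 bases of the windows of Nphs1, Kirrel and Cd2ap lie inside annotated exons. Each sequence runs 5′ to 3′ on the gene's strand and stops before the first annotated exon base. Capitals mark a match to a binding motif of a podocyte transcription factor.
Ptpro (chr6:137252049-137252298, plus strand): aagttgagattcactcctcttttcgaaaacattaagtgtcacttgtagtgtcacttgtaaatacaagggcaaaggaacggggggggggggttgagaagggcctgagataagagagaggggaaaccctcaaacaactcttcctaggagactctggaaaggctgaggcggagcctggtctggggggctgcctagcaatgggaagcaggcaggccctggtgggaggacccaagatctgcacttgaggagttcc
Actn4 (chr7:28962341-28962582, minus strand): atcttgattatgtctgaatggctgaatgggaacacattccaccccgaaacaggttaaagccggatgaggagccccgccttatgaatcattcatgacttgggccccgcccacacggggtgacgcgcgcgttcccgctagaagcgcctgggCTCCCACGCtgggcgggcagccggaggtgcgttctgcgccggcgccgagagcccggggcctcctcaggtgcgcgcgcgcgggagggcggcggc
Magi2, first start (chr5:19226796-19227035, plus strand): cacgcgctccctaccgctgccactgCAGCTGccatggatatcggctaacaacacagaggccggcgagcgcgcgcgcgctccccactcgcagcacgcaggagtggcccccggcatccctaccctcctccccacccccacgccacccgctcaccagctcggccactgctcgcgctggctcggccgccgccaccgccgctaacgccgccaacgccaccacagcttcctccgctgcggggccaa
Magi2, second start (chr5:19907268-19907517, plus strand): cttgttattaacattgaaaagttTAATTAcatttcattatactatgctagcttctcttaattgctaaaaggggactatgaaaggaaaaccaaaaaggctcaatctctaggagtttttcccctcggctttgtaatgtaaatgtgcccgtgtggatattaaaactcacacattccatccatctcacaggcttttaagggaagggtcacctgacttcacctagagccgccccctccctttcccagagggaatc
The second window of Magi2 lies within the annotated span of the gene.

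Both strands were searched for letters bound by WT1, LMX1B, TCF21 and PPARγ with its partner RXR. The WT1 letters GCGTGGGAG were found in the Actn4 window on the strand opposite to the gene and in 0.409% of 32536 promoter windows. The TCF21 letters CAGCTG were found in the first Magi2 window and in that of Cd2ap, and in 13.1% of all windows. The LMX1B letters TAATTA were found in the second Magi2 window and in 4.84% of all windows. The direct repeat bound by PPARγ with RXR and the other WT1 letters, GCGGGGGCG and TCCTCCTCC, were in none of the 7 windows, and in 0.034%, 2.60% and 2.46% of all windows. The windows of Nphs1 and Kirrel stood out in composition, a feature looked at after the sequences had been seen. Of their 250 bases each, 250 and 210 lie inside annotated exons, so their shares describe mostly exon sequence and not upstream sequence. Purines (A or G) made up 77.2% of the Nphs1 window and 76.8% of the Kirrel window on the gene's strand, against a median of 50.0% over all windows, and 99.9% of windows had a lower share than either. The window of Ptpro came next at 60.8%, and that of Actn4, at 52.4%, lay near the median.

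In the dbdb group the podocyte and slit diaphragm genes were mostly higher than in the control group, the comparison that asks what diabetes changes. Of the 9 genes, 6 rose (Nphs1, Kirrel, Magi2, Podxl, Ptpro and Actn4) and none fell, at an adjusted p under 0.05 from limma over all genes. Over all 14537 genes, 13.1% rose by the same test and 26.4% changed in either direction. The median log2 fold change of the 9 genes was 0.34, against a median of -0.003 over all genes. Every dbdb library lay above every control library for 7 of the 9 genes, the 6 that rose and Wt1, which 21.2% of all genes did. At an unadjusted p under 0.05 there were these 7 genes, against 38.8% of all genes. The largest increase was that of Nphs1, which was 1.82-fold higher in the ratio of group means.

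**Figure D1:**
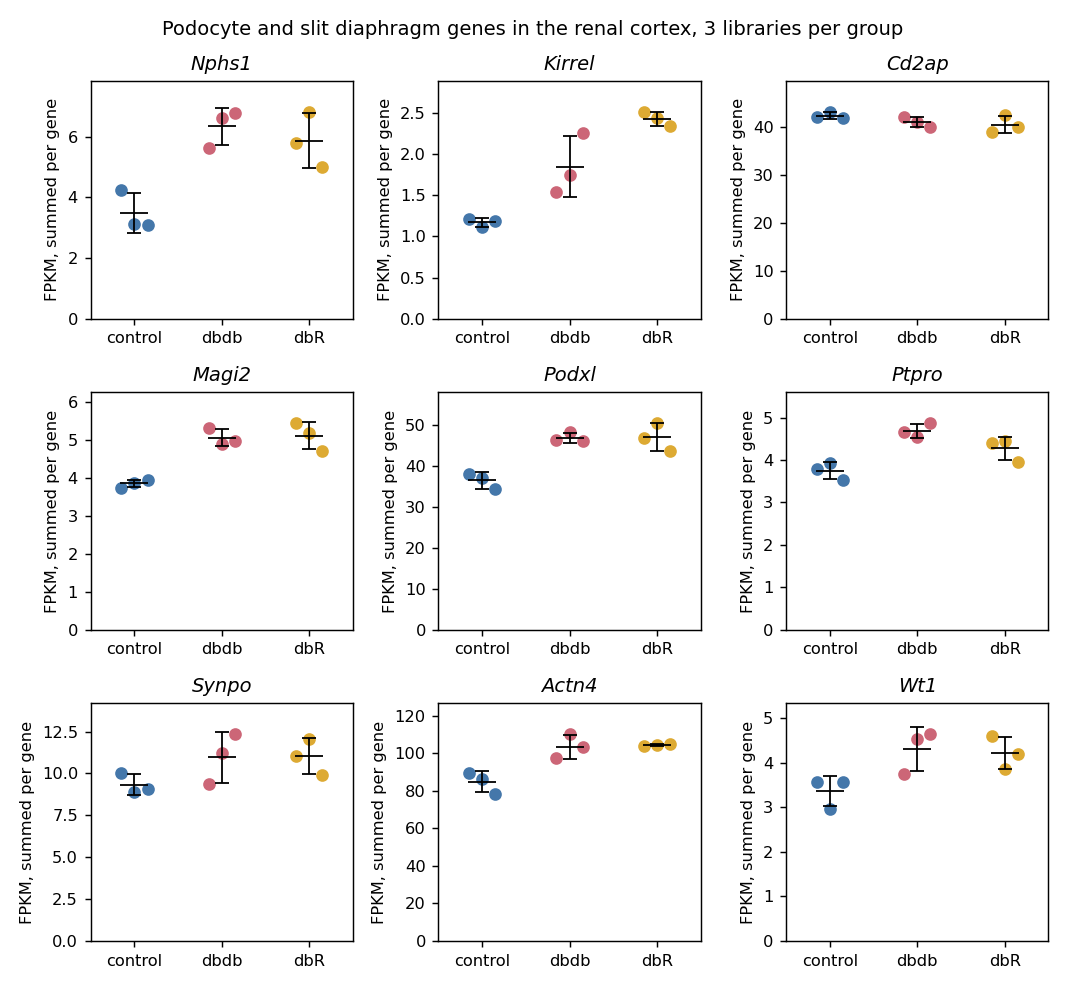
FPKM of each of the 9 genes (vertical axes, starting at 0) in the 3 libraries of the control, dbdb and dbR groups; points are libraries, and black bars give the mean ± SD (n = 3). Nphs1 ran from 3.08 to 4.25 in the control libraries and from 5.01 to 6.82 in the 6 db/db libraries, while Cd2ap stayed between 38.9 and 43.1 in all 9.

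Fold changes below are on the log2(FPKM + 0.1) scale and adjusted p-values are from limma with the Benjamini-Hochberg correction over all genes tested. Each p-value sets a difference between groups against the spread between mice within groups. That spread was pooled over the 3 groups and adjusted toward that of genes of similar level. The dbdb vs. control and dbR vs. control comparisons share the control libraries, and dbdb vs. control and dbR vs. dbdb share the dbdb libraries, so their values are given side by side and are not independent.

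Nphs1 (ENSMUSG00000006649, chr7:30458315-30487223, plus strand) encodes nephrin, the transmembrane protein whose extracellular domains span the slit. It measured 4.25, 3.13 and 3.08 FPKM in control, 5.65, 6.62 and 6.79 in dbdb, and 5.81, 6.82 and 5.01 in dbR libraries. All 6 db/db libraries lay above all 3 control libraries, and the dbdb and dbR groups overlapped. Nphs1 rose in dbdb mice by 0.86 (SE 0.15, adjusted p = 0.0027) and was still higher in dbR than in control mice by 0.74 (SE 0.15, adjusted p = 0.0060). Between dbR and dbdb mice the difference was -0.12, with a 95% interval of -0.45 to 0.22 (adjusted p = 0.736), so a fall of the size of the increase was outside the interval.

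Kirrel (ENSMUSG00000041734, chr3:87078593-87174747, minus strand) encodes NEPH1, which binds nephrin across the slit. Its values were 1.21, 1.11 and 1.19 FPKM in control, 1.54, 1.74 and 2.26 in dbdb, and 2.51, 2.44 and 2.35 in dbR libraries. The 3 groups did not overlap, with control lowest and dbR highest. Kirrel rose by 0.60 (SE 0.14, adjusted p = 0.0113) in dbdb and by 0.995 (SE 0.14, adjusted p = 0.00089) in dbR mice relative to control, the largest increase among the 9 genes in the latter comparison. The further step from dbdb to dbR was 0.40 (SE 0.14, 95% interval 0.09 to 0.71), with an unadjusted p of 0.0177 and an adjusted p = 0.184, and did not pass the test. With a pseudocount of 1 the 2 increases over control measured 0.38 and 0.66 and still passed the test.

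Among the adaptors, Cd2ap and Magi2 gave different results. Cd2ap (ENSMUSG00000061665, chr17:42792951-42876665, minus strand) encodes a scaffold that joins nephrin to actin and to phosphoinositide signalling. It measured 42.0, 43.1 and 41.9 FPKM in control, 42.0, 40.9 and 39.9 in dbdb, and 38.9, 42.4 and 39.9 in dbR libraries. The groups overlapped in every comparison, and the means of 42.3 ± 0.64, 40.9 ± 1.01 and 40.4 ± 1.77 FPKM (SD, n = 3) lay within 5% of each other. The log2 differences were -0.05 (95% interval -0.17 to 0.07, adjusted p = 0.530) for dbdb vs. control and -0.07 (-0.18 to 0.05, adjusted p = 0.379) for dbR vs. control. Cd2ap was the only one of the 9 genes with a negative difference in both, and its sign turned with the scaling of the libraries, to 0.11 and 0.03 with mitochondrial transcripts left out.

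Magi2 (ENSMUSG00000040003, chr5:19227036-20704792, plus strand) encodes a PDZ-domain scaffold that binds nephrin. It measured 3.74, 3.86 and 3.95 FPKM in control, 5.32, 4.89 and 4.97 in dbdb, and 5.44, 5.19 and 4.71 in dbR libraries. Each db/db library lay above the control libraries, and the 2 db/db groups overlapped. Magi2 rose by 0.38 (SE 0.08, adjusted p = 0.0078) in dbdb and by 0.40 (SE 0.08, adjusted p = 0.0070) in dbR mice over control, and dbR and dbdb differed by 0.01 (95% interval -0.17 to 0.20).

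Podxl and Ptpro encode proteins of the apical podocyte surface, above the slit. Podxl (ENSMUSG00000025608, chr6:31519488-31563981, minus strand) encodes podocalyxin, the charged sialomucin that keeps foot processes apart. It measured 38.0, 36.9 and 34.2 FPKM in control, 46.1, 48.1 and 45.9 in dbdb, and 46.8, 50.3 and 43.6 in dbR libraries, with no overlap between control and either db/db group. Podxl rose by 0.36 (SE 0.07, adjusted p = 0.0035) in dbdb and by 0.37 (SE 0.07, adjusted p = 0.0035) in dbR mice. The difference between dbR and dbdb was 0.005 (95% interval -0.14 to 0.15).

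Ptpro (ENSMUSG00000030223, chr6:137252319-137463233, plus strand) encodes GLEPP1, a receptor tyrosine phosphatase of the foot process. It measured 3.80, 3.93 and 3.53 FPKM in control, 4.67, 4.53 and 4.87 in dbdb, and 4.41, 4.46 and 3.95 in dbR libraries. The dbR values fell between the other groups, all above the control libraries and all below the dbdb libraries. Ptpro rose in dbdb mice by 0.31 (SE 0.09, adjusted p = 0.0224), while the dbR vs. control difference of 0.18 (SE 0.09, adjusted p = 0.153) and the dbR vs. dbdb difference of -0.13 (SE 0.09, adjusted p = 0.459) did not pass. The call in dbdb mice was lost without control replicate 3 (adjusted p = 0.0781), without dbdb replicate 1 (0.0522), without dbdb replicate 3 (0.0669) and under quantile normalization (0.0579). Its log2 difference kept between 0.24 and 0.48 over all the alternatives.

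Synpo and Actn4 encode actin-binding proteins of the foot process. Synpo (ENSMUSG00000043079, chr18:60593973-60660142, minus strand), for synaptopodin, measured 10.0, 8.92 and 9.06 FPKM in control, 9.35, 11.2 and 12.3 in dbdb, and 11.04, 12.1 and 9.94 in dbR libraries. The lowest dbdb library and the lowest dbR library lay within the control range. The log2 differences were 0.22 (SE 0.11, adjusted p = 0.168) in dbdb and 0.23 (SE 0.11, adjusted p = 0.155) in dbR mice relative to control, with a 95% interval of -0.02 to 0.47 for the former. Without dbdb replicate 1 the dbdb difference was 0.33 (adjusted p = 0.0451), past the threshold, as was the 0.38 with mitochondrial transcripts left out (adjusted p = 0.0466).

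Actn4 (ENSMUSG00000054808, chr7:28893248-28962340, minus strand) encodes α-actinin-4, an actin crosslinker that many cell types use. Its values were 89.5, 86.6 and 78.5 FPKM in control, 97.4, 110 and 103 in dbdb, and 104, 104.5 and 105 in dbR libraries. Both db/db groups lay wholly above control and overlapped each other. Actn4 rose by 0.29 (SE 0.07, adjusted p = 0.0104) in dbdb and by 0.30 (SE 0.07, adjusted p = 0.0088) in dbR mice over control. With mitochondrial transcripts left out the dbdb increase measured 0.45. Capn12 overlaps Actn4 on the opposite strand, and the libraries were made with a strand-keeping kit.

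Wt1 (ENSMUSG00000016458, chr2:105126529-105173616, plus strand) encodes the zinc finger transcription factor that maintains podocyte identity and binds near many podocyte genes. It measured 3.57, 2.96 and 3.55 FPKM in control, 3.74, 4.53 and 4.63 in dbdb, and 4.59, 3.87 and 4.19 in dbR libraries. Every db/db library lay above every control library, but dbdb replicate 1 only narrowly. The log2 difference of 0.34 (SE 0.12) in dbdb mice had an adjusted p = 0.0547 and the 0.32 (SE 0.12) in dbR mice an adjusted p = 0.0750, so neither passed. Without dbdb replicate 1 the dbdb difference was 0.44 (adjusted p = 0.0287), and it passed too with the filter at a mean FPKM of 1 (adjusted p = 0.0475) with scaling to the 75th percentile (0.0432) and with mitochondrial transcripts left out (0.0189). The dbR difference passed under the 75th percentile scaling alone among the alternatives (adjusted p = 0.0472).

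The count of 6 genes that rose in dbdb mice ran from 5 to 8 over the alternatives on gene sums, with 5 under quantile normalization and without control replicate 3 or dbdb replicate 3, and 8 with mitochondrial transcripts left out. On the main transcript of each gene it was 3 (Nphs1, Podxl and Actn4). That last scaling moved the median of all genes by 0.15 on the log2 scale and the share of increases among called genes from 49.5% to 78.3%. Taken relative to the median of all genes, the median of the 9 genes was 0.35 both in the values as deposited and under that scaling.

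Between rosiglitazone and vehicle in db/db mice, the comparison that asks what the drug changes, none of the 9 genes passed the test in limma. Over all genes 0.743% passed, and 82 of the 108 rose. At an unadjusted p under 0.05 there was 1 of the 9 genes, Kirrel, against 17.5% of all genes. The dbR libraries lay wholly above the dbdb libraries for Kirrel, as for 10.7% of all genes, and wholly below them for Ptpro, as for 11.9%. For the other 7 genes the groups overlapped, and their differences ran from -0.12 for Nphs1 to 0.01 for Actn4, with signs that turned with the scaling for Cd2ap, Magi2, Podxl, Synpo and Actn4. The median difference of the 9 genes was 0.005. None of the 9 genes passed under any of the alternatives tried, although the count over all genes ran from 2, without dbR replicate 2, to 234, under quantile normalization. The share of increases among the called genes moved from 75.9% to 48.6% with mitochondrial transcripts left out.

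In the dbR group compared with control, which asks how treated diabetic mice differ from non-diabetic ones, 5 of the 9 genes rose (Kirrel, Nphs1, Magi2, Podxl and Actn4), against 12.3% of all genes, and 24.1% of all genes changed in either direction. None fell. All 3 dbR libraries lay above all 3 control libraries for 7 of the 9 genes, the 5 that rose with Ptpro and Wt1, as for 20.8% of all genes. At an unadjusted p under 0.05 there were 6, the 5 that rose and Wt1, against 36.8% of all genes. The median log2 fold change was 0.32, against -0.001 over all genes. The count stayed at 5 without any 1 library, was 5 or 6 over the other alternatives on gene sums, and was 3 on the main transcript of each gene. Among all called genes the share of increases was 51.1%, 70.5% with mitochondrial transcripts left out and 62.3% with 75th percentile scaling.

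**Figure D2:**
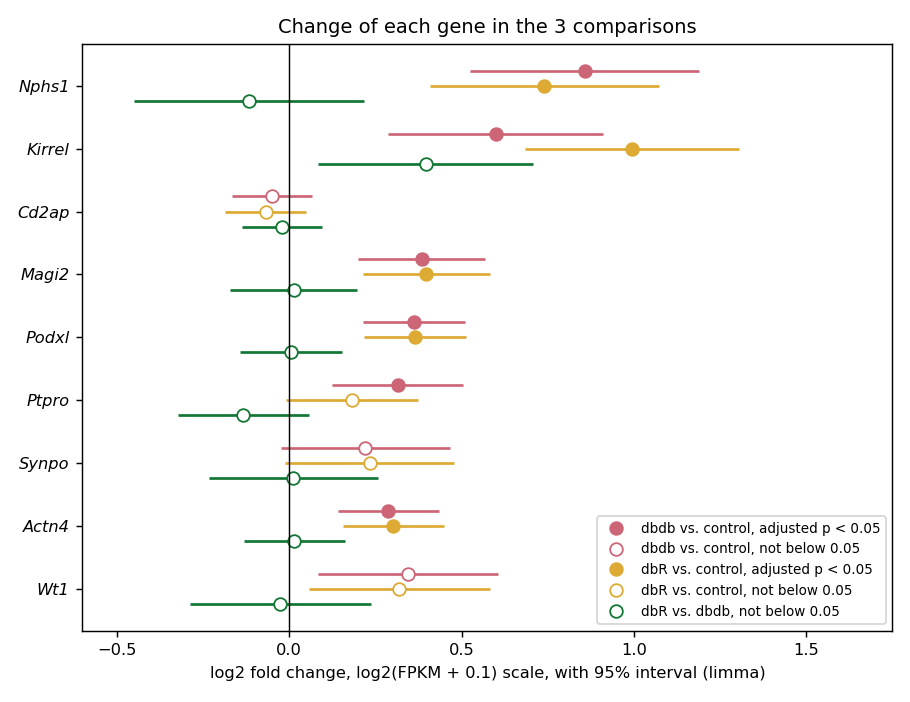
Log2 fold change with its 95% interval (horizontal axis) of each of the 9 genes for dbdb vs. control, dbR vs. control and dbR vs. dbdb; filled points passed an adjusted p of 0.05 in limma, open points did not. The intervals of dbR vs. dbdb spanned 0 for all genes but Kirrel, whose adjusted p was 0.184.

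The order of the libraries within each group was counted over the 9 genes, and whether they shifted together was not tested. Control replicate 1 was the highest of its group for 6 of the 9 genes and control replicate 3 the lowest for 5. In the dbdb group, replicate 1 was the lowest for 5 genes and replicate 3 the highest for 5. In the dbR group, replicate 3 was the lowest for 6 genes and replicate 2 the highest for 5.

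Ratios of 2 genes within a library do not depend on how the library was scaled, and are given here without a test because they were chosen after the levels were seen. The ratio of Nphs1 to Podxl was 0.112, 0.0848 and 0.0901 in control libraries, 0.123, 0.138 and 0.148 in dbdb libraries, and 0.124, 0.136 and 0.115 in dbR libraries. Nephrin mRNA was thus higher relative to podocalyxin mRNA in each db/db library than in each control library. The ratio of Cd2ap to Podxl went the other way, from 1.11, 1.17 and 1.23 in control to 0.910, 0.851 and 0.870 in dbdb and 0.831, 0.842 and 0.915 in dbR libraries. For Magi2 and Wt1 the ratios to Podxl overlapped between all 3 groups.

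The 9 genes were annotated with 35 transcripts, of which 25 had a mean of at least 0.1 FPKM. At the transcript level 3 of the 25 rose in dbdb and 3 in dbR mice relative to control, against 9.23% and 8.30% of 31858 transcripts that changed, and none changed between dbR and dbdb, against 0.0126%. The 3 that rose were the same in both: the main transcripts of Nphs1 (ENSMUST00000006825, 0.86 in dbdb, adjusted p = 0.0134), Podxl (ENSMUST00000026698, 0.36, adjusted p = 0.0120) and Actn4 (ENSMUST00000068045, 0.29, adjusted p = 0.0246). Each of these held nearly all of its gene's FPKM, with 30, 8 and 21 exons. In the transcript comparison, limma without a trend of the variance left 1 in dbdb and 0 in dbR mice.

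For genes with several similar transcripts the estimated split varied between libraries of a group. The Kirrel transcript ENSMUST00000107618 was at 0.766, 1.11 and 0.000075 FPKM in the control libraries, while ENSMUST00000159976, which shares nearly all of its exons, was at 0.445, 0.0045 and 1.01. The gene sums of the same libraries were within 10% of each other, so the split and not the gene total was unstable. On its main transcript alone Kirrel did not pass, with log2 differences from control of 1.66 in dbdb (SE 0.81, adjusted p = 0.261) and 1.67 in dbR mice (adjusted p = 0.270). Magi2 did not pass either, at 0.42 (adjusted p = 0.127) and 0.50 (adjusted p = 0.0789), nor did Ptpro in dbdb mice, at 0.48 (adjusted p = 0.0695). These differences were larger than those of the gene sums. Synpo behaved likewise, with ENSMUST00000097566 at 3.41, 7.23 and 1.70 FPKM and ENSMUST00000130044 at 5.17, 2.94 and 6.69 in the dbR libraries. For Wt1, ENSMUST00000143043 led with a mean of 1.98 FPKM and 4 of its 6 transcripts were tested, none of which passed.

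The other 74 podocyte genes, in lists drawn up by function, were compared to see whether they moved as the 9 genes did. The lists were not limited to genes restricted to podocytes. Control means reached 121 FPKM for Ezr, 94.5 for Itgb1 and 89.1 for Fgf1, against 3.49 for Nphs1. How much of these levels came from podocytes was not tested, so the changes are those of whole cortex. Of the 74 genes, 72 passed the filter, and in dbdb mice 15 rose and 11 fell, against 26.4% of all genes that changed. Their median log2 fold change was 0.08, compared with 0.34 for the 9 genes. In dbR relative to control mice 19 rose and 6 fell, against 24.1% of all genes that changed and 12.3% that rose, with a median of 0.14. The dbdb count of 26 was 17 without control replicate 2 or dbdb replicate 3, and the dbR count of 25 was 16 without control replicate 2 or control replicate 3.

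Of the slit diaphragm proteins and adaptors outside the 9 genes, 14 of 15 were tested and 3 changed in dbdb mice, against 26.4% of all genes. Cask, a scaffold kinase, rose from 7.28 ± 0.74 to 9.61 ± 0.84 FPKM (SD, n = 3; log2 0.40, adjusted p = 0.0142), and Cdh3, P-cadherin, rose from 0.880 ± 0.217 to 1.40 ± 0.224 FPKM (0.62, adjusted p = 0.0273). Fyn, a kinase that phosphorylates nephrin, fell from 3.70 to 2.70 FPKM (-0.45, adjusted p = 0.0462), a call that held under 7 of 16 alternatives. In dbR mice Cask (0.50), Cdh3 (0.56), Magi1 (0.35) and Tjp1 (0.28), the latter the tight junction protein ZO-1, rose over control. Kirrel2, a second nephrin-binding protein whose gene lies 625 bases from Nphs1 on the opposite strand, was at or below 0.252 FPKM in every library and was not tested.

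Of the cytoskeletal genes, 17 of 18 were tested, and 5 rose and 2 fell in dbdb mice, against the same 26.4%. Inf2, a formin, rose from 1.29 ± 0.0841 to 2.14 ± 0.111 FPKM (log2 0.69, adjusted p = 0.0041), and Ezr, ezrin, which links podocalyxin to actin, rose from 121 to 154 FPKM (0.34, adjusted p = 0.0093). Pdlim2 rose as well (0.40, adjusted p = 0.0200). Clic5, a chloride channel family protein that sits in the ezrin complex, fell from 52.1 ± 0.888 to 38.4 ± 1.498 FPKM (-0.44, adjusted p = 0.000305), and its dbR level was 41.4 FPKM (-0.33 vs. control, adjusted p = 0.0016). Nebl rose (0.52, adjusted p = 0.0239) and Rhpn1 fell (-0.41, adjusted p = 0.0118) in dbR relative to control mice. Tln1, at 51.8 FPKM in control, did not pass in any comparison.

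Of the 8 transcription factors, 2 rose and 1 fell in dbdb mice, where 26.4% of all genes changed. Dach1 rose (0.26, adjusted p = 0.0331). Hey1, a Notch target, fell at a low level, from 0.592 ± 0.211 to 0.253 ± 0.0109 FPKM (SD, n = 3; -0.92, adjusted p = 0.0208). Control replicate 1 was at 0.349 FPKM. In dbR relative to control mice, Tcf21 (0.74), Foxc2 (0.62) and Zbtb7c (0.74) rose. Foxc1, at 2.02 FPKM in control, did not pass in any comparison.

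Of 20 surface and secreted proteins, 5 rose and 5 fell in dbdb mice, against 26.4% of all genes that changed. Cdkn1c, the cell cycle inhibitor p57 that marks mature podocytes, rose from 8.55 ± 1.29 to 16.4 ± 1.32 FPKM (log2 0.94, adjusted p = 0.00068) and stayed higher in dbR than in control mice at 14.9 ± 2.20 (0.79, adjusted p = 0.0018). Npnt, nephronectin, rose from 19.2 to 32.9 FPKM (0.78, adjusted p = 0.00013). Fgf1, a growth factor, and Mme, neprilysin, which proximal tubule cells also make, fell, Fgf1 from 89.1 to 30.1 FPKM (-1.56, adjusted p = 1.8e-05) and Mme from 58.6 to 34.2 FPKM (-0.78, adjusted p = 1.1e-05). Mme rose between dbdb and dbR mice to 43.6 FPKM (0.35, adjusted p = 0.0234), which held under 8 of 16 alternatives. Robo2 rose in dbR mice relative to control (0.59, adjusted p = 0.0053), and Tdrd5 fell in dbdb mice (-0.68, adjusted p = 0.0216). Enpep, at 79.6 FPKM in control, did not pass in any comparison.

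Of 13 basement membrane and integrin genes, 1 rose and 2 fell in dbdb mice, where 26.4% of all genes changed. Lama5, the laminin α5 chain, rose from 7.52 ± 0.316 to 12.5 ± 0.721 FPKM (log2 0.73, adjusted p = 0.000305), with 10.3 FPKM in dbR mice. Itgb1 (-0.27, adjusted p = 0.0137) and Col4a3 (-0.31, adjusted p = 0.0441) fell, and the call of Col4a3 was lost under all 3 other scalings. Nid1, nidogen, was similar in control (9.29 FPKM) and dbdb (9.62) and rose in dbR mice to 16.6 FPKM (dbR vs. dbdb 0.77, adjusted p = 0.0251), a call that held under 10 of 16 alternatives. Cd151, at 46.8 FPKM in control, did not pass in any comparison. Nid1 and Mme were the 2 of the 72 podocyte genes that changed between dbR and dbdb mice, against 0.743% of all genes. That count was 0 without dbdb replicate 1, dbdb replicate 2 or dbR replicate 2 and 1 without dbR replicate 3.

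**Figure D3:**
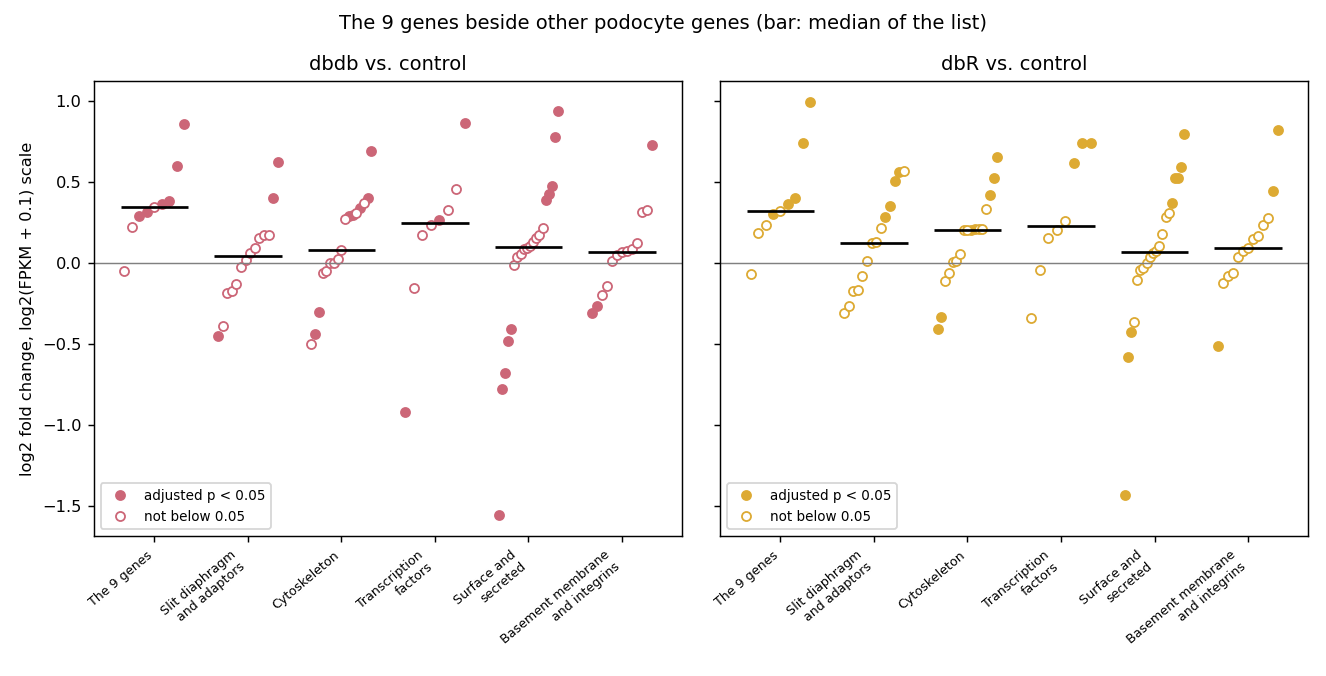
Log2 fold change (vertical axis) of the 9 genes and of the other podocyte genes in 5 lists, for dbdb vs. control and dbR vs. control; each point is 1 gene, filled where the adjusted p was under 0.05 in limma, and bars are list medians. In dbdb mice the 9 genes had a median of 0.34 and the lists medians between 0.04 and 0.25.

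Markers of other cortical cells moved between the groups as well, and their part in the results above was not tested. The counts of markers that follow stand against 13.1% of all genes that rose and 26.4% that changed in either direction in dbdb mice. The summed FPKM of the 9 genes was 179 to 196 in control, 216 to 233 in dbdb and 219 to 232 in dbR libraries. Loop, distal tubule and collecting duct markers summed to 509 to 624 FPKM in control, 771 to 1063 in dbdb and 790 to 859 in dbR libraries, and 4 of 6 rose in dbdb mice, led by Calb1 (2.12) and Aqp2 (1.34). Immune cell markers summed to 32.05 to 37.3 FPKM in control, 14.4 to 23.2 in dbdb and 19.8 to 25.6 in dbR libraries, and 5 of 7 fell in dbdb mice, among them Csf1r (-1.37) and Ptprc (-1.39). Proximal tubule markers summed to 3006 to 3396 FPKM in control, 3173 to 3925 in dbdb and 3556 to 3705 in dbR libraries, so that the dbR libraries lay above the control libraries and the dbdb libraries overlapped both, and 2 of 8 rose in dbdb mice.

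The endothelial list, whose genes mark vessels of the whole cortex as well as glomeruli, summed to 194 to 214 FPKM in control, 178 to 188 in dbdb and 221 to 244 in dbR libraries. Of its 10 genes 4 fell (Emcn, Kdr, Pecam1 and Cdh5) and 1 rose (Plat) in dbdb mice, and 3 (Emcn, Kdr and Tek) rose between dbdb and dbR mice, against 0.743% of all genes and none of the 9 podocyte genes. These calls held under 11 of 16 alternatives for Emcn, 8 for Kdr and 5 for Tek, and all 3 were lost without dbR replicate 2 or dbR replicate 3. Emcn, endomucin, measured 35.98 ± 1.16 FPKM in control, 23.6 ± 0.751 in dbdb and 37.4 ± 4.73 in dbR libraries. Mesangial and smooth muscle markers overlapped in their sum, at 75.7 to 94.1, 62.6 to 93.2 and 72.8 to 96.3 FPKM, and 1 of 8, Gata3, rose in dbdb mice. Pdgfrb of the same list measured 5.57 ± 0.241 FPKM in control, 4.58 ± 0.4999 in dbdb and 7.43 ± 0.589 in dbR libraries (SD, n = 3), and it rose between dbdb and dbR mice (0.69, adjusted p = 0.0234) and in dbR over control mice (0.41, adjusted p = 0.0131). Ren1 made up much of the mesangial sum, with means of 44.5 to 50.2 FPKM in the 3 groups. Outside the endothelial and mesangial lists, Atp6v1g3 of the collecting duct was the marker that passed between dbR and dbdb mice (0.52, adjusted p = 0.0251). The dbR vs. dbdb calls of Pdgfrb and Atp6v1g3 held under 9 and 8 of 16 alternatives, and both were lost without dbR replicate 2 or dbR replicate 3, and without dbdb replicate 1 or dbdb replicate 2. Parietal epithelial markers summed to 26.8 to 27.5, 27.6 to 29.6 and 33.4 to 35.4 FPKM, with 1 of 6 higher (Pax2) and 1 lower (Cd44) in dbdb mice. All genes of these marker lists passed the filter, so none was at 0 throughout, and the lowest, the B cell gene Cd79a, was at 0 in dbdb replicate 3.

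**Figure D4:**
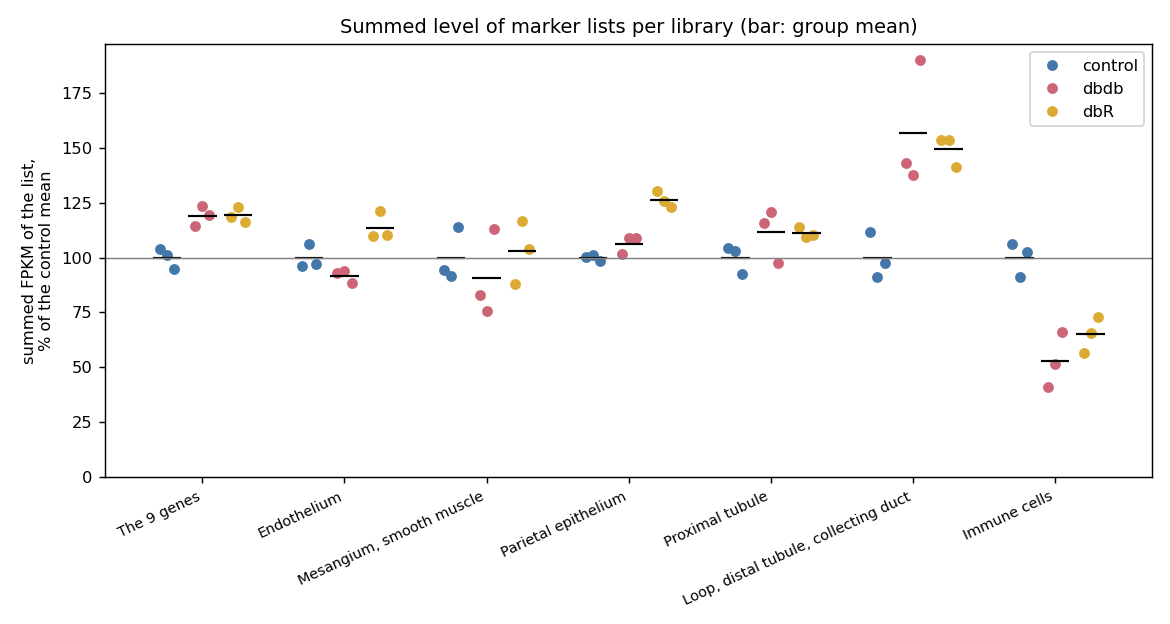
Summed FPKM of the 9 genes and of marker lists for other cortical cells in each library, as a percentage of the control mean (vertical axis, starting at 0); points are libraries and bars are group means. The 9 genes stood at 114% to 123% of the control mean in dbdb and 116% to 123% in dbR libraries, immune markers at 41.1% to 66.2% and 56.5% to 72.9%.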

How the data were processed

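Per the labels and the study's methods, ribosomal RNA was removed from total RNA of the renal cortex, stranded libraries were sequenced on an Illumina HiSeq instrument, reads were aligned to GRCm38.p2 with TopHat2 2.0.9, and Cufflinks 2.1.1 gave FPKM per transcript. The deposited FPKM values, for 50660 mRNA, 2071 annotated lncRNA and 461 assembled lncRNA transcripts, are not counts, so no count model was used. FPKM was summed per gene, genes with a mean of at least 0.1 FPKM were kept, and log2(FPKM + 0.1) was fitted in 1 model over the 9 libraries with limma 3.58.1 (R 4.3.3; variance trend, 95% intervals). A gene was called at a Benjamini-Hochberg adjusted p under 0.05 over all genes tested. A fold change on this scale understates the change of low genes. Transcripts were fitted in the same way. Gene positions are from GENCODE M21 (GRCm38) and promoters from RefSeq. The script was tested on simulated data. The 9 genes and the gene lists were chosen with earlier results of these data known. Named from the other lists were genes called in any comparison (at most 6 per list, by size of change) and the uncalled gene with the highest mean FPKM. Likeness was searched over genes with a mean of at least 1 FPKM. Other pseudocounts, filters, scalings, sets of libraries, variance models and the replicate block were tried as alternatives. Some genes of the lists are counted but not reported by name here.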

Additional observations from a re-analysis of the deposited data

How the results depend on the processing

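The increases of Nphs1, Kirrel, Magi2, Podxl and Actn4 in dbdb and dbR relative to control mice passed the test under every alternative on gene sums. On the main transcript, Nphs1, Podxl and Actn4 passed in both comparisons and Kirrel and Magi2 in neither. The transcript calls did not hold under every alternative. The split between similar transcripts was unstable, and the cause was not tested. The files give no counts, so counting error could not be separated from the spread between mice. Deviations of same-numbered libraries correlated between -0.195 and 0.0608, and those of other pairs between -0.110 and 0.206. With 3 libraries per group these values cannot settle whether mice shared a batch, so the main fit used no pairing. The replicate block left 6, 0 and 5 of the 9 genes called in dbdb vs. control, dbR vs. dbdb and dbR vs. control. With the block, 23 genes in place of 108 were called in dbR vs. dbdb, 0 in place of 2 other podocyte genes in dbR vs. dbdb, and 1 in place of 3 transcripts of the 9 genes in dbR vs. control.

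In dbR vs. dbdb the genes called were 31 with no filter, 166 with a mean FPKM of at least 1, 203 with 75th percentile scaling, 234 with quantile normalization, 22 with only the 6 libraries compared, 18 with no variance trend, and 2 to 141 without 1 library (2 without dbR replicate 2, 10 without dbR replicate 3, 31 without dbdb replicate 2, 36 without dbdb replicate 1, 70 without dbR replicate 1). Other podocyte genes called there were 1 with mitochondrial transcripts left out, 0 with only the 6 libraries compared, 0 with no variance trend, and 0 to 2 without 1 library. Transcripts of the 9 genes with no variance trend were 1 for dbdb and 0 for dbR mice against control. Without 1 library, they were 1 to 5 for dbdb and 1 to 3 for dbR mice against control, and 0 in dbR vs. dbdb. Against control, genes called were then 2761 to 3173 for dbdb and 2479 to 2865 for dbR mice, other podocyte genes 17 to 26 and 16 to 27, and the 9 genes 5 to 7 and 5, with 0 of the 9 in dbR vs. dbdb.

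Differences that turned sign had adjusted p-values of 0.181 or more under the alternatives that turned them. Cd2ap measured 0.109 in dbdb and 0.0262 in dbR vs. control with mitochondrial transcripts left out, and 0.0420 and 0.00348 under quantile normalization. In dbR vs. dbdb it measured 0.00359 with 75th percentile scaling. In that comparison, leaving out mitochondrial transcripts gave -0.0486 for Magi2, -0.0587 for Podxl, -0.0507 for Synpo and -0.0488 for Actn4, quantile normalization gave -0.00913 for Podxl and -0.0264 for Actn4, and the main transcript of Synpo gave -0.470. Without 1 library, dbR vs. dbdb ran from -0.0543 to 0.00643 for Cd2ap, -0.0312 to 0.0699 for Magi2, -0.0470 to 0.0560 for Podxl, -0.0970 to 0.102 for Synpo, -0.0293 to 0.0600 for Actn4 and -0.121 to 0.0338 for Wt1. The cause was not tested.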

Other observations

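Among 11606 genes with a mean of at least 1 FPKM, the 5 whose levels followed the mean of the 9 genes most closely over the 9 libraries were Tmem117 (Pearson r 0.993), Me2 (0.988), Atp6v0d2 (0.985), Tacc1 (0.985) and Slc16a5 (0.984). These values describe 9 libraries that share the step from control to db/db mice, so genes that differ between those groups score high. Tmem117, a membrane protein gene, measured 4.94, 4.44 and 4.42 FPKM in control, 6.41, 7.51 and 7.56 in dbdb, and 8.08, 8.03 and 6.88 in dbR libraries. Atp6v0d2, a subunit of the proton pump of intercalated cells, rose by 0.71 on the log2 scale, to 13.5 ± 1.17 FPKM (SD, n = 3) in dbdb mice (adjusted p = 0.000363 in limma). Me2 encodes a mitochondrial malic enzyme and Slc16a5 a monocarboxylate transporter; none of the 5 was on a podocyte list.

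Within 100 kb of the 9 genes, 2 lncRNA transcripts had a mean of at least 0.1 FPKM. Both belong to 4921504A21Rik, which lies on the strand opposite to Magi2 and starts 0.481 kb and 0.868 kb before it. ENSMUST00000180594.5 had a mean of 0.858 FPKM and ENSMUST00000197496.1 one of 0.777 FPKM, and neither passed the test between dbdb and control mice in limma, with adjusted p-values of 0.993 and 0.681. Another 28 lncRNA transcripts had no position and were not placed.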
